A study of Mus musculus with 12 samples.

Results

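RelA binding was compared between macrophages taken 3 h after lipopolysaccharide (LPS) and macrophages at 0 h, in the animals that the labels call Littermate control. The unit is the hotspot, a stretch of genome enriched for sequence tags in a single ChIP-seq library. The hotspots described are those of these 2 libraries that did not overlap, by 1 bp or more, a hotspot of input DNA from untreated wild-type macrophages. They number 15804, of 49690 kept in the same way over the 9 immunoprecipitated libraries of the series. Of them 9999 belonged to the 3 h library and 5805 to the 0 h library, after 131 and 54 hotspots over input were dropped. Hotspots with a highest tag density (MaxD) of 10 or more are called dense here, and those below 10 are called low-density.

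Both libraries came from bone marrow derived macrophages, which are primary macrophages grown out of bone marrow, of strain C57BL/6J. The 3 h cells carried the genotype label Littermate control and had been stimulated with LPS for 3 h, and the 0 h cells carried the same label with LPS for 0 h. Chromatin was cross-linked with formaldehyde and precipitated with the RelA antibody ab7970 from Abcam in both. The labels of these samples do not say which mutant the littermates were bred beside, and another sample of the series is labelled Ikzf KO. Input of the littermates was not analysed here, so input came from wild-type animals. Each time was 1 library, so nothing below has a replicate check, and no p-value between the times is given. The deposited names of the littermate RelA files of 3 h and of 8 h, a library used below for comparison, give 60 min beside the labelled time. The labels were used.

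RelA, also called p65, is the subunit of NF-kB that carries the transactivation domain. In a resting macrophage the RelA and p50 dimer is held mainly in the cytoplasm by IkB proteins. LPS comes from the outer membrane of Gram-negative bacteria and signals through the receptor TLR4 to the IkB kinase complex. IkB is then degraded, and the dimer enters the nucleus, where it binds kB motifs at promoters and enhancers of inflammatory genes.

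The 2 lists were not cut alike. The 3 h list went down to a z score of 8.64 and the 0 h list to 10.9, so the lists were cut at unlike depths. Read depth is unknown and the scale of the densities is not stated. Of the deposited MaxD values below 20, 58.9% at 3 h were whole multiples of a step of 0.486 and 51.4% at 0 h of a step of 1.14, to within 0.0006. A MaxD of 10 therefore stood at 20.6 steps at 3 h and 8.78 steps at 0 h. All intervals are exact 95% Clopper-Pearson intervals, or order-statistic intervals for a median. They cover counting error over hotspots only, and neighbouring hotspots are not independent.

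Each list held a large group of low-density hotspots and a smaller group of dense ones. At 3 h 2091 hotspots were dense, 20.9% of the list, against 265 at 0 h, 4.57% of the list. The low-density class held 7908 hotspots at 3 h and 5540 at 0 h. In proportion the dense class thus differed far more between the times than the low-density class did. In number of hotspots the low-density class differed more, by 2368 against 1826. With the boundary at 20 density steps of each library in place of MaxD 10, the 0 h dense class held 154 hotspots.

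Counted by MaxD, the hotspots of each library formed a pair of humps with a trough between them. At 3 h the tallest bin was MaxD 3 to 4, with 3154 hotspots. The trough stood at 9 to 10, with 82 hotspots, and 178 hotspots lay between 13 and 14. Bins were of equal width up to MaxD 16 and wider above it. At 0 h the tallest bin was also 3 to 4, with 1633 hotspots, while the trough stood at 15 to 16, with 4 hotspots. The upper hump held 52 hotspots between 25 and 30, a wider bin than that of the trough. The boundary of 10 fell beside the trough at 3 h and below the trough at 0 h. The 0 h dense class therefore includes 64 hotspots with a MaxD between 10 and 16, at or below its trough. At the boundary itself, the 2 nearest dense hotspots of each time had a MaxD of 10.06 at 3 h, on chromosomes 7 and 8, and of 10.04 and 10.07 at 0 h, on chromosomes X and 7. The 2 nearest low-density ones had 9.94 at 3 h, on chromosomes X and 8, and 9.63 at 0 h, on chromosomes 15 and 3.

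**Figure D1:**
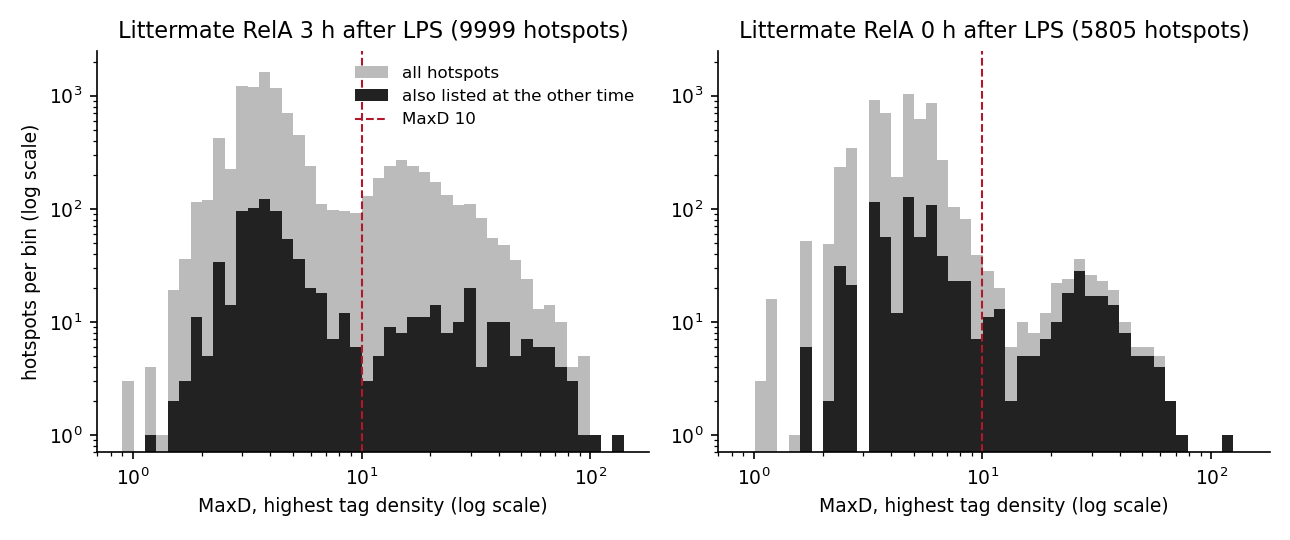
Number of hotspots per bin of highest tag density (MaxD, log scale on both axes) in the littermate RelA library at 3 h (left) and 0 h (right), with the hotspots also listed at the other time in black and MaxD 10 as a dashed line. The lower hump is tall at both times, while the upper hump holds many more hotspots at 3 h, and the black bars fill most of the upper hump at 0 h alone. Gaps between bars on the left of each panel come from the stepped values of the density.

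Most hotspots of either time were not listed at the other. Of all 3 h hotspots 7.95% were listed at 0 h and 92.0% were not, and of all 0 h hotspots 13.7% were listed at 3 h and 86.3% were not. In the dense class 157 of 2091 hotspots at 3 h were listed at 0 h, 7.51% (6.42 to 8.72), close to the share over the whole list. In the other direction 173 of 265 dense hotspots at 0 h were listed at 3 h, 65.3% (59.2 to 71.0), several times the share over the whole list. Dense RelA sites of unstimulated cells were thus mostly listed again after LPS. Their part of the dense sites after LPS could only be small, as 265 hotspots can meet few of 2091. The lists were also cut at unlike depths.

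Low-density hotspots recurred little in either direction. At 3 h 638 of 7908 were listed at 0 h, 8.07% (7.48 to 8.69), and at 0 h 622 of 5540 were listed at 3 h, 11.2% (10.4 to 12.1). The 3 h share was close to the 7.95% of its whole list and the 7.51% of its dense class. The 0 h share was below the 13.7% of its whole list. Overlaps seldom crossed the classes. Of the dense hotspots at 3 h, 150 met a dense hotspot at 0 h and 8 met a low-density one, and 23 low-density hotspots at 3 h met a dense one at 0 h. The median MaxD was 14.7 at 3 h and 8.00 at 0 h over the 8 crossings, and 6.56 at 3 h and 11.97 at 0 h over the 23.

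Hotspots not listed at the other time seldom had a neighbour there within 1000 bp. Of the 1934 dense hotspots at 3 h not listed at 0 h, 10 lay within 1000 bp of a 0 h hotspot, 0.517% (0.248 to 0.949). Of the 92 dense hotspots at 0 h not listed at 3 h, 7 lay within 1000 bp of a 3 h hotspot, 7.61% (3.11 to 15.1). In the low-density class the shares were 6.80% of 7270 at 3 h and 9.48% of 4918 at 0 h. Few dense hotspots counted as unlisted therefore had a hotspot of the other time just beside them.

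Over the 150 pairs that were dense at both times, the median MaxD was 28.7 at 3 h and 27.8 at 0 h. MaxD was higher at 3 h in 71 of the 150 pairs, the median ratio of 3 h over 0 h was 0.977, and the quartiles were 0.721 and 1.42. A ratio of 2 or more was seen in 17 pairs and a ratio of 0.5 or less in 11. As deposited, neither time was the denser one in most pairs by more than a few, and the ratios were not corrected for the unlike steps. In units of each library's own step the median ratio was 2.29. Spearman's correlation of MaxD between the times was 0.44 over these 150 pairs, which share genome position and unknown depth.

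In the same 150 pairs the 3 h hotspot was the wider one in 122 and the narrower in 28. The median width was 674 bp at 3 h and 526 bp at 0 h, and their centres lay a median of 34.3 bp apart. The 617 pairs that were low-density at both times aligned less closely, with centres a median of 86.5 bp apart. As deposited, their median MaxD was 3.89 at 3 h and 4.56 at 0 h. MaxD was higher at 3 h in 173 of the 617 pairs. The median ratio of 3 h over 0 h was 0.809 as deposited and 1.89 in units of each library's own step. Spearman's correlation of MaxD was 0.13.

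The densest hotspots of the 3 h list included sites of both kinds, listed and not listed at 0 h. No gene is assigned to any region, because the gene table at hand is of another assembly than mm9. Coordinates are on mm9 as deposited, and whether a start counts from 0 or 1 is not stated. The densest of all, on chromosome 17 at 13202688 to 13203528, had a MaxD of 132 and a width of 840 bp at 3 h, against 26.0 and 378 bp at 0 h. Next came chromosome 10 at 37057769 to 37058835, with a MaxD of 102 at 3 h and 29.4 at 0 h. The third, chromosome 17 at 18037496 to 18038329, had 94.5 at 3 h and 36.6 at 0 h. These 3 sites were also listed by RelA in wild-type cells at 0, 3 and 8 h and in littermate cells at 8 h.

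The next 2 sites listed at both times ranked 9 and 10 by density at 3 h. On chromosome 3 at 131360907 to 131361787, MaxD was 85.4 at 3 h and 59.99 at 0 h, where the site ranked 7 by density. On chromosome 2 at 153023880 to 153024775, MaxD was 81.8 at 3 h and 28.8 at 0 h. All 5 of the densest shared sites had a higher MaxD at 3 h, which their choice by 3 h density favours.

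Of the 10 densest hotspots at 3 h, 5 were not listed at 0 h. The densest of these lay on chromosome 9 at 88847599 to 88848676, with a MaxD of 92.9 at 3 h. Those next in order had 90.3 on chromosome 19 at 6944995 to 6945926, 88.9 on chromosome 10 at 18734831 to 18735841, 88.9 on chromosome 6 at 134650533 to 134651408 and 85.9 on chromosome 11 at 117807397 to 117808427. Each was also listed for RelA in littermate cells at 8 h and in wild-type cells at 3 and 8 h. The site on chromosome 10 was listed in wild-type cells at 0 h too, so at that site the littermate and wild-type 0 h lists differ.

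Dense hotspots of 0 h that were missing at 3 h behaved unlike one another in the other libraries. The densest, on chromosome 8 at 11460776 to 11461375, had a MaxD of 61.3 at 0 h and was listed for RelA in wild-type cells at 3 and 8 h. So was chromosome 11 at 6291406 to 6292006, with 39.8 at 0 h. Chromosome 17 at 24308701 to 24309208, with 46.8 at 0 h, was listed in wild-type cells at 3 h and for Ikaros, a zinc finger DNA-binding protein encoded by Ikzf1, at 3 and 8 h. Chromosome 16 at 31066749 to 31067323, with 50.4 at 0 h, was listed for Ikaros at 3 and 8 h and in no other RelA library. Chromosome 5 at 110853094 to 110853695, with 42.4 at 0 h, was in no other list. None of these 5 was listed in littermate cells at 8 h.

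The low-density hotspots highest by z score were seldom found in other libraries. The 5 with the highest z scores at 3 h among those not listed at 0 h had z scores between 61.5 and 92.9 and a MaxD between 6.66 and 8.75, and none was in any other list. The highest was on chromosome 8 at 125333058 to 125333974. Of the 3 with the highest z scores that were listed at 0 h, the first lay on chromosome 8 at 19906293 to 19906565, with a MaxD of 9.89 at 3 h and 12.4 at 0 h. The 2 others, on chromosome 1 at 135491096 to 135492028 and chromosome X at 92128527 to 92129222, had a MaxD of 8.65 and 6.05 at 3 h, against 5.94 and 6.83 at 0 h. Both were also listed in littermate cells at 8 h, and none of the 3 was in a wild-type list. The 3 low-density hotspots with the highest z scores at 0 h not listed at 3 h, on chromosomes 6, 8 and 4 with z scores between 29.1 and 32.4, were in no other list.

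The density classes differed sharply in libraries that the classes did not use. Of the dense hotspots at 3 h, 1645 of 2091 were listed for RelA in wild-type cells at 3 h, 78.7% (76.9 to 80.4), against 87 of 7908 low-density ones, 1.10% (0.882 to 1.36). Of 0 h hotspots the shares were 66.0% (59.99 to 71.7) of 265 dense and 0.0542% (0.0112 to 0.158) of 5540 low-density hotspots, again in the wild-type 3 h library. That list was 95.6% dense, with 219 low-density hotspots of 4972. In littermate cells at 8 h, where 80.4% of the list was low-density, the shares were 41.4% (39.2 to 43.5) of dense and 7.26% (6.70 to 7.85) of low-density hotspots of 3 h. At 0 h they were 47.2% (41.0 to 53.4) and 7.65% (6.97 to 8.39). Low-density hotspots were thus listed more often in littermate cells at 8 h than in the wild-type 3 h library, which held few hotspots of their class. Genotype label, animals and library preparation cannot be told apart between the series.

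Dense sites listed at both littermate times recurred most, and they were also the denser ones. At 3 h their median MaxD was 28.0, against 17.2 for dense hotspots not listed at 0 h. Whether recurrence differs at equal density was not tested. Of the 157 dense hotspots at 3 h listed at 0 h, 87.3% (81.0 to 92.0) overlapped wild-type RelA of 3 h, 73.2% (65.6 to 80.0) littermate RelA of 8 h and 17.2% (11.6 to 24.0) wild-type RelA of 0 h. Of the 1934 not listed at 0 h, 78.0% (76.1 to 79.8) overlapped wild-type RelA of 3 h, 38.8% (36.6 to 41.0) littermate RelA of 8 h and 0.414% (0.179 to 0.813) wild-type RelA of 0 h. The wild-type 0 h list held 47 hotspots in all, so few could meet it. For Ikaros in wild-type cells at 3 h the shares were 70.1% (62.2 to 77.1) of the listed and 56.9% (54.7 to 59.1) of the unlisted.

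The contrast was wider among dense hotspots of 0 h, where the listed had a median MaxD of 26.6 and the unlisted 20.9. Of the 173 dense hotspots listed at 3 h, 79.2% (72.4 to 85.0) overlapped wild-type RelA of 3 h and 68.2% (60.7 to 75.1) littermate RelA of 8 h. Of the 92 not listed at 3 h, 41.3% (31.1 to 52.1) overlapped wild-type RelA of 3 h and 7.61% (3.11 to 15.1) littermate RelA of 8 h. Low-density hotspots listed at both times also recurred more at 8 h than the rest. The share in the littermate 8 h list was 14.3% (11.6 to 17.2) of the 638 at 3 h that were listed at 0 h and 6.64% (6.08 to 7.24) of the 7270 that were not.

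**Figure D2:**
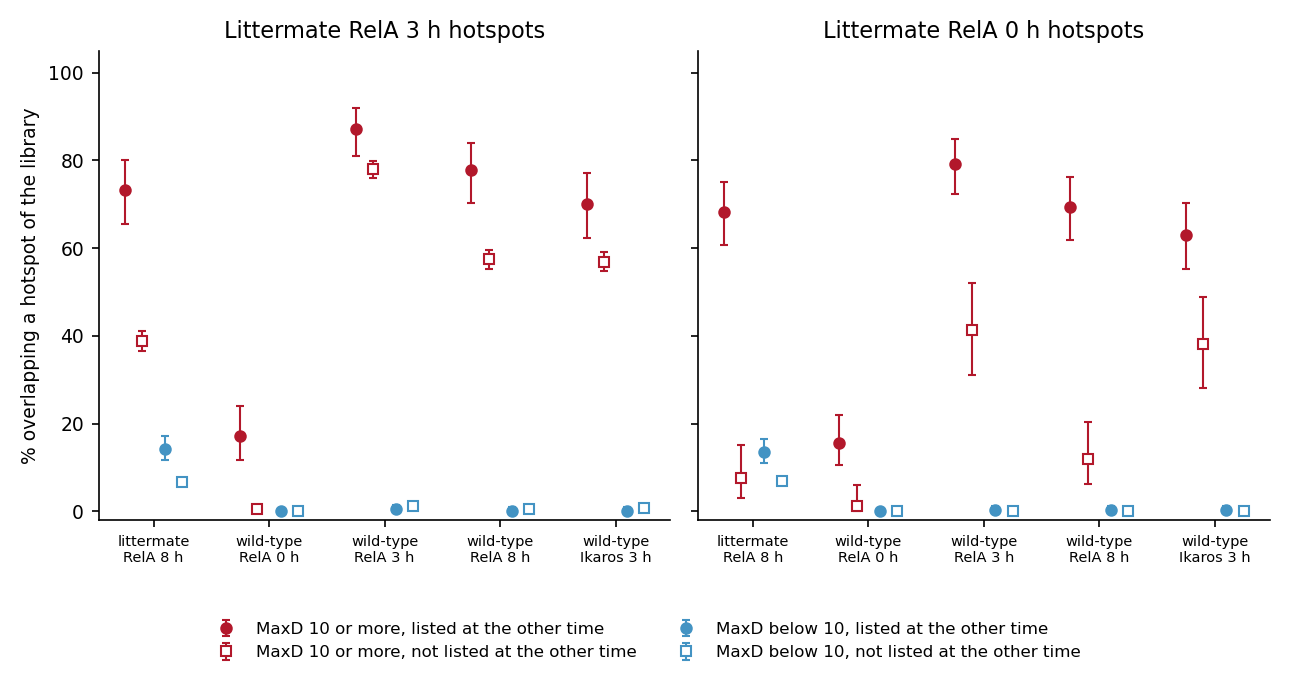
Share of littermate RelA hotspots at 3 h (left) and 0 h (right) that overlapped a hotspot of another library by 1 bp or more, for dense (red) and low-density (blue) hotspots, split by whether they were listed at the other littermate time (filled circles) or not (open squares). Bars are exact 95% intervals. Dense hotspots listed at both times stand highest in each library, and low-density hotspots stand near 0 in the wild-type libraries and at 6.64% to 14.3% in the littermate 8 h library.

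The share found in the wild-type 3 h list ran with density inside the dense class as well, at both times. At 3 h it was 62.5% (59.1 to 65.7) for a MaxD of 10 to 16, 83.8% (80.0 to 87.2) for 16 to 20, 90.7% (87.7 to 93.1) for 20 to 30 and 96.1% (93.5 to 97.9) from 30 upward. At 0 h the same bands gave 14.1% (6.64 to 25.02), 66.7% (43.0 to 85.4), 81.4% (72.3 to 88.6) and 88.0% (79.0 to 94.1). From MaxD 16 upward the intervals of the times overlap, while in the band from 10 to 16 they do not. The same MaxD stood at more density steps at 3 h than at 0 h. Of the 64 hotspots at 0 h in that band, 48.4% (35.8 to 61.3) were listed at littermate 3 h all the same. Just under the boundary, at MaxD 8 to 10, the wild-type share was 29.2% (22.7 to 36.5) of 178 hotspots at 3 h and 1.52% (0.0384 to 8.16) of 66 at 0 h.

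By MaxD, the highest quintile recurred more often than the lowest in the dense class at both times and in the low-density class at 0 h. Dense hotspots at 3 h, split into 5 quintiles by MaxD, were listed at 0 h in 2.39% (1.15 to 4.35) of the lowest quintile and 18.9% (15.3 to 23.0) of the highest. Over the same quintiles the share listed in littermate cells at 8 h was 14.8% (11.5 to 18.6) in the lowest and 89.7% (86.4 to 92.5) in the highest. Among the 50 densest hotspots at 3 h, 24 were listed at 0 h. In the dense class at 0 h, the share listed at 3 h was 49.1% (35.1 to 63.2) in the lowest quintile and 81.1% (68.0 to 90.6) in the highest.

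In the low-density class at 3 h the share listed at 0 h lay between 7.15% and 8.72% in every quintile of MaxD. By z score it was 1.77% (1.18 to 2.55) in the lowest quintile and 13.5% (11.9 to 15.3) in the fourth, with 12.02% (10.5 to 13.7) in the highest. The lowest 3 h quintile by z score, which ends at 10.2, lies wholly under the weakest z score of the 0 h list. At 0 h the low-density share listed at 3 h was 8.75% (7.16 to 10.6) in the lowest quintile of MaxD and 15.5% (13.4 to 17.8) in the highest. The z score and MaxD also ordered hotspots differently in the low-density class, with a Spearman correlation of 0.038 at 3 h and 0.36 at 0 h, against 0.81 at 3 h and 0.43 at 0 h in the dense class. These correlations run across hotspots of 1 library, which are not independent.

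**Figure D3:**
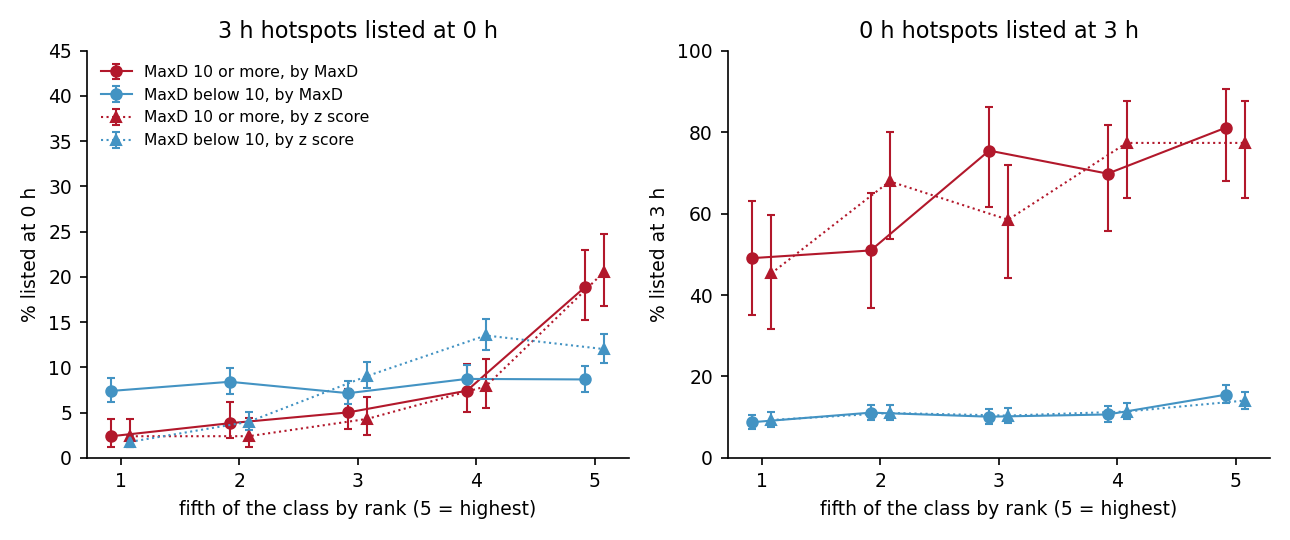
Share of littermate RelA hotspots listed at the other time by quintile of rank within their class, for 3 h hotspots (left, axis to 45%) and 0 h hotspots (right, axis to 100%), ranked by MaxD (circles) or z score (triangles), with exact 95% intervals. The dense class climbs to 18.9% at 3 h and 81.1% at 0 h in its highest MaxD quintile, and the low-density class stays below 16% throughout.

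Dense hotspots were wider than low-density ones at both times, and each class was wider at 3 h with the boundary at MaxD 10. The median width of dense hotspots was 553 bp (545 to 561) at 3 h and 448 bp (426 to 472) at 0 h. With the boundary at 20 density steps of each library, the dense medians were 552 bp (543 to 559) at 3 h and 543 bp (516 to 567) at 0 h, with intervals that overlap. The median of low-density hotspots was 293 bp (291 to 296) at 3 h and 257 bp (255 to 260) at 0 h. The narrowest width in either list was 251 bp. It was held by 1.20% of dense hotspots at 3 h and 7.92% at 0 h, and by 26.8% of low-density ones at 3 h and 46.1% at 0 h. Many low-density hotspots therefore stood at the shortest width deposited, and width cannot vary below it.

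Dense hotspots listed at both times were the wider ones in each list, and also the denser ones by median MaxD. Spearman's correlation of MaxD with width in the dense class was 0.79 at 3 h and 0.71 at 0 h. Whether width differs at equal density was not tested. At 3 h the dense hotspots listed at 0 h had a median width of 675 bp (629 to 703) and the unlisted 545 bp (536 to 553). At 0 h the dense hotspots listed at 3 h had 497 bp (470 to 538) and the unlisted 406 bp (376 to 429). With both lists held to the higher of the lowest z scores, the dense median was 599 bp at 3 h and 448 bp at 0 h. For comparison, dense hotspots of the wild-type 3 h library had a median width of 549 bp (541 to 556), which overlaps the interval of the littermate 3 h library.

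The widest dense hotspots at 3 h were on chromosome 5 at 92774209 to 92776359, 2150 bp wide with a MaxD of 43.0, and on chromosome 14 at 103456684 to 103458498, 1814 bp wide with a MaxD of 14.8. Neither was listed at 0 h, and RelA and Ikaros were both listed there in wild-type cells at 3 h. At 0 h the widest was on chromosome 11 at 43198444 to 43199329, 885 bp wide, and it met a hotspot of 968 bp at 3 h. Its MaxD was 38.8 at 3 h and 62.4 at 0 h, which makes it one of the sites denser at 0 h as deposited. The next, on chromosome 3 at 60272471 to 60273330, was 859 bp wide at 0 h and met one of 1219 bp at 3 h, with a MaxD of 18.6 at 3 h and 10.7 at 0 h. In the low-density class the widest were 1284 and 1087 bp at 3 h, both on chromosome 1, and 1001 and 906 bp at 0 h, on chromosomes 1 and 15.

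Dense hotspots lay far closer together at 3 h than at 0 h, in a class with many more members. The median gap from a dense hotspot to the next was 258 kb at 3 h and 4726 kb at 0 h. Another dense hotspot lay within 10 kb of 25.8% (24.0 to 27.8) of them at 3 h and 7.55% (4.67 to 11.4) at 0 h. When only the 265 densest at 3 h were used, to equal the number at 0 h, the median gap was 4383 kb and the share within 10 kb was 8.68% (5.58 to 12.7). At equal numbers the intervals of the share within 10 kb overlap between the times. The 265 of 3 h were the densest of their class while the 0 h class was whole, so the sets differ in more than time. The 0 h share was 1.30% with the boundary at 20 density steps, 3.41% with the boundary at MaxD 15 and 13.7% with hotspots over input kept.

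Low-density hotspots lay closer together at 3 h than at 0 h too, again in a longer list. The median gap was 145 kb at 3 h and 215 kb at 0 h, and the share within 10 kb of another was 27.9% (26.9 to 28.9) at 3 h and 21.9% (20.8 to 23.0) at 0 h. With the 5540 densest of the class at 3 h, the share was 20.8% (19.7 to 21.9), which overlaps that of the 5540 at 0 h. Held to 2091 hotspots, the number in the dense class at 3 h, the low-density class at 3 h gave 13.2% (11.8 to 14.8), below the 25.8% of the dense class. At equal numbers, dense hotspots of 3 h were therefore the more grouped. At 0 h the 265 densest of the low-density class gave 5.28% (2.92 to 8.71) and the dense class 7.55%, with intervals that overlap.

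Neighbours of the other class were counted as well. Within 10 kb of a dense hotspot lay 123 of 7908 low-density hotspots at 3 h, 1.56% (1.29 to 1.85), and 23 of 5540 at 0 h, 0.415% (0.263 to 0.622). In the other direction, 4.495% (3.65 to 5.47) of dense hotspots at 3 h and 8.68% (5.58 to 12.7) at 0 h lay within 10 kb of a low-density one. Each share depends on how many hotspots the other class holds, and whether the classes lie nearer or farther than their numbers give was not tested.

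**Figure D4:**
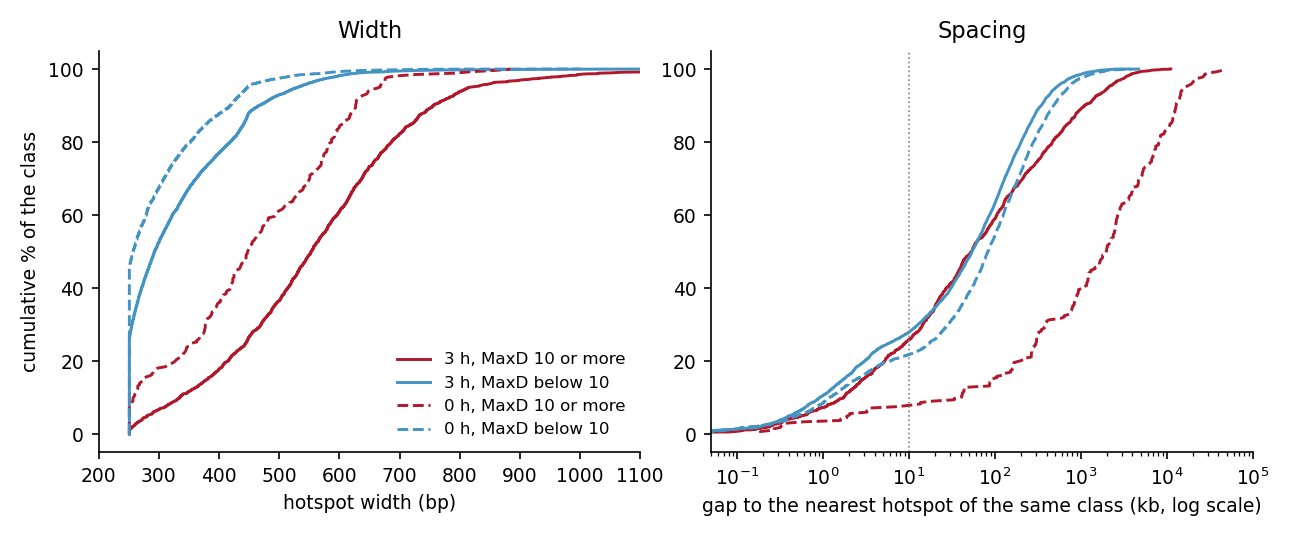
Cumulative share of hotspots by width in bp (left) and by gap in kb to the nearest hotspot of the same class on a log scale (right, with 10 kb as a dotted line), for dense (red) and low-density (blue) hotspots at 3 h (solid) and 0 h (dashed). The dense curves lie to the right of the low-density ones in width, 3 h lies right of 0 h within each class, and the 0 h dense curve of the gap is far right of the 3 h one, whose class holds 2091 hotspots against 265.

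Chained by gaps of 10 kb or less, the dense hotspots formed 225 groups of 2 or more at 3 h and 8 at 0 h. Groups of 3 or more numbered 57 at 3 h and 3 at 0 h. The largest group at 3 h held 8 dense hotspots on chromosome 11 at 83459992 to 83479844, with a MaxD between 12.8 and 65.2. Of them 1 was listed at 0 h, 6 were in the wild-type RelA 3 h list and 2 in the littermate 8 h list. Next came 7 hotspots on chromosome 4 at 144844194 to 144873784, with a MaxD between 14.3 and 45.3. None of the 7 was listed at 0 h, all 7 were in the wild-type RelA 3 h list, and 6 were in the littermate 8 h list. A further 7 lay on chromosome 11 at 83337264 to 83358404, with a MaxD between 14.05 and 36.2, none of them listed at 0 h, all of them in the wild-type list and 1 in the littermate 8 h list. The pair of groups on chromosome 11 lay close to each other, and both were mostly absent from the littermate 8 h list, unlike the group on chromosome 4.

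Low-density hotspots formed 982 groups of 2 or more at 3 h and 560 at 0 h. The largest at 3 h held 17 hotspots on chromosome X at 92122706 to 92169247, with a MaxD between 2.65 and 6.80. Of these 9 were listed at 0 h and 8 in littermate cells at 8 h, while 1 was in the wild-type RelA 3 h list. The next held 12 on chromosome 8 at 19997341 to 20037373, of which 4 were listed at 0 h, 4 in littermate cells at 8 h and none in wild-type cells at 3 h. Grouped low-density hotspots were listed at the other time more often than lone ones, at 10.3% (9.06 to 11.6) against 7.21% (6.55 to 7.91) at 3 h and 14.04% (12.1 to 16.1) against 10.4% (9.55 to 11.4) at 0 h. Grouping did not go with recurrence in the dense class at 3 h, where 6.30% (4.40 to 8.69) of grouped and 7.93% (6.63 to 9.39) of lone hotspots were listed at 0 h. Of the dense hotspots at 0 h, 8 of the 20 grouped (interval 19.1% to 63.9%) and 165 of the 245 lone ones (61.1% to 73.2%) were listed at 3 h, with intervals that overlap.

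The classes were spread differently over the chromosomes, X among them. Chromosome X made up 6.31% of the summed chromosome length, taken from the highest end coordinate in any file. It held 2.53% (1.90 to 3.30) of dense hotspots at 3 h and 4.53% (2.36 to 7.78) at 0 h, and 9.46% (8.82 to 10.1) of low-density hotspots at 3 h and 9.30% (8.54 to 10.1) at 0 h. The dense class was thus below the length share on X at 3 h, and the low-density class was above it at both times. With the boundary at 20 density steps the dense share on X was 2.74% at 3 h and 1.95% at 0 h, so the order of the times in the dense class turned. It was 3.51% at 3 h and 7.35% at 0 h with hotspots over input kept, 3.31% at 3 h and 6.95% at 0 h with the boundary at MaxD 8, and 1.35% at 3 h and 2.44% at 0 h with the boundary at MaxD 15.

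Within the dense class at 3 h, the X share was lower at high MaxD. It was 6.68% (4.49 to 9.51) in the lowest quintile of MaxD and 0.478% (0.0580 to 1.72) in the highest, and ranked by z score it lay between 1.44% and 3.59% in every quintile. In the low-density class it lay between 8.29% and 10.2% in every quintile of MaxD at 3 h. Low-density X shares did not differ between hotspots listed at the other time and not listed beyond their intervals, at 10.3% (8.09 to 12.97) against 9.38% (8.72 to 10.1) at 3 h. In other libraries, X held 1.62% (1.28 to 2.02) of dense hotspots of wild-type RelA at 3 h, 2.92% (1.98 to 4.15) of dense and 9.20% (8.35 to 10.1) of low-density hotspots of littermate RelA at 8 h, and 33.8% (28.9 to 39.0) of dense hotspots of wild-type input.

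Among the autosomes, dense hotspots at 3 h stood above the length share on chromosomes 2, 10, 11, 16, 17 and 19, and below it on 8 and 15, by intervals that leave out the length share. Chromosome 11 stood highest for its length, with 147 dense hotspots or 12.1 per 10 Mb, 1.53 times the length share, and chromosome 15 lowest at 0.720 times. Low-density hotspots at 3 h went the other way on 4 of these, with shares below the length share on chromosomes 2, 11, 16 and 19, and also on 9. They stood above it on chromosomes 3, 4, 14 and Y as well as X. At 3 h the dense class therefore made up 38.1% (33.2 to 43.1) of the hotspots of chromosome 11 and 37.8% (30.7 to 45.3) of those of chromosome 19, against 6.62% (5.00 to 8.57) of those of X.

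At 0 h the dense class was small on every chromosome, and its interval lay above the length share on chromosomes 8, 11 and 17 and below it on none. Chromosome 11 held 22 of the 265, 1.80 times its length share, and was the highest autosome for its length at both times. Chromosome 8 held 82 dense hotspots at 3 h and 22 at 0 h, 0.787 and 1.67 times the length share, so it stood below the length share at 3 h and above it at 0 h, a difference that was not tested. The low-density class at 0 h was spread much as at 3 h, with shares above the length share on chromosomes 1 and X and below it on 2, 8, 9, 11 and 19. The number of low-density hotspots was higher at 3 h on every chromosome, between 1.20 times on chromosome 19 and 2.00 times on Y, and the number of dense hotspots was 2.00 times on Y to 17.0 times on chromosome 19.

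**Figure D5:**
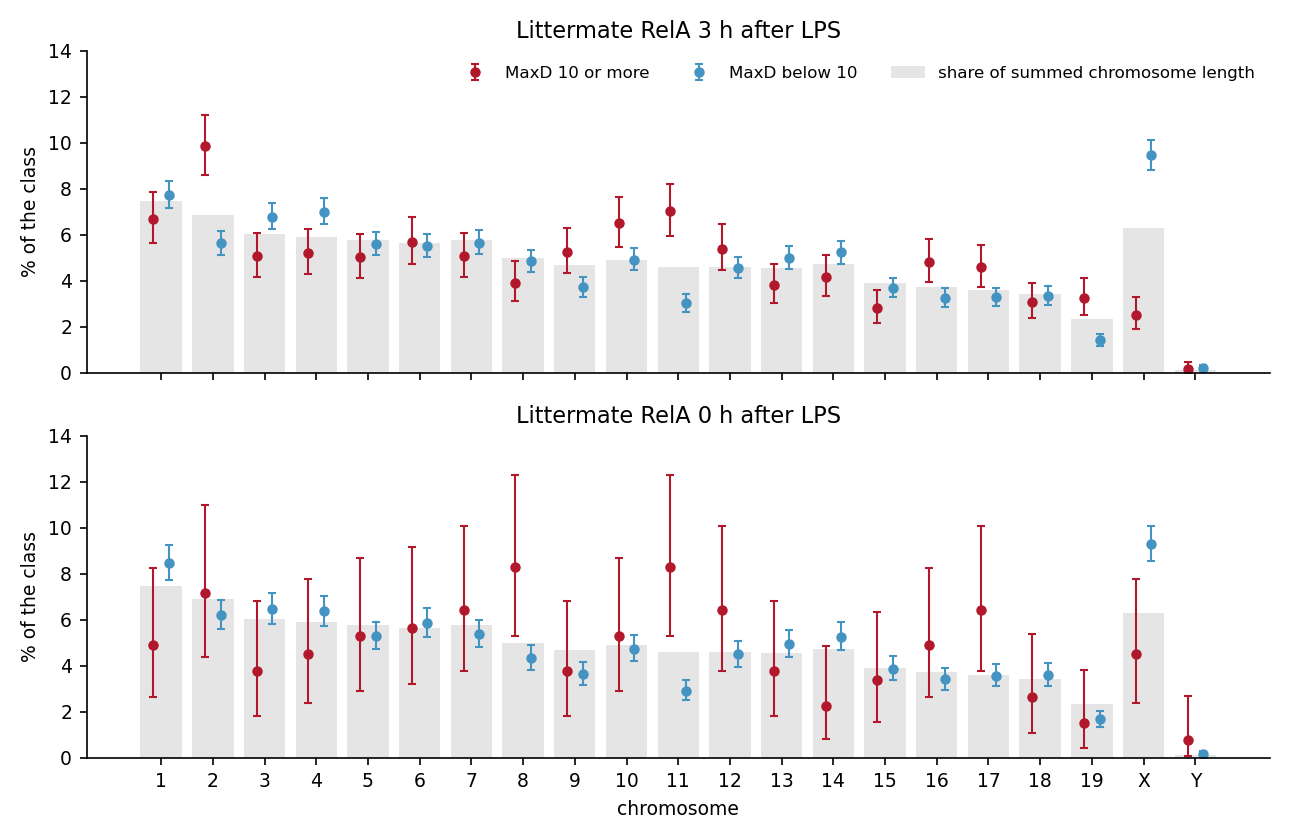
Share of each class on each chromosome in percent, at 3 h (above) and 0 h (below), for dense (red) and low-density (blue) hotspots with exact 95% intervals, over bars for the chromosome's share of summed length. Dense hotspots at 3 h stand above the bar on chromosomes 2, 10, 11, 16, 17 and 19, low-density hotspots stand above it on X at both times, and intervals of the 265 dense hotspots at 0 h are wide.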

How the data were processed

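RelA ChIP-seq of littermate macrophages was read from hotspot lists, 1 per library, on mm9, with CASAVA named, per the submitters' processing notes. Which aligner, caller and threshold gave the hotspots, and whether input was subtracted, is not given in the sources used here. Per the file headers the authors deposited for each hotspot a highest and a mean tag density, a signal of unstated scale, a z score and a p-value. The p-value was not used. The z scores rank or describe hotspots within a list, apart from the list limits tried as alternatives and the flagged medians.

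Hotspots overlapping wild-type input were dropped. Shares carry exact Clopper-Pearson 95% intervals, and ties in MaxD were ordered by z score. A hotspot counted as listed elsewhere when it overlapped one there by 1 bp or more. Named regions were taken by rule as the densest, the highest by z score, the widest, the largest groups and those nearest the boundary, listed and not listed at the other time. The members, classes and rules were chosen with earlier results of these data known. Alternatives were other boundaries, overlaps, input filters, z limits, list lengths, gaps and rank splits. Depth is unknown and limits precision. Overlap counts equalled those of bedtools 2.31.1 on the deposited lists (832 and 832), and the steps were tested on simulated data. Python 3.11.15 was used with numpy 2.4.6, pandas 2.3.3, scipy 1.17.1 and matplotlib 3.10.9.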

Additional observations from a re-analysis of the deposited data

Results flagged for a closer look

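The change between 3 h and 0 h went opposite ways in littermate and wild-type RelA libraries for 6 measures, each with 1 library per time, and no difference between the series was tested. In the dense class of littermate cells the median z score was 14.7 at 3 h and 15.02 at 0 h, a difference of -0.279. In wild-type cells it was 13.2 at 3 h and 12.9 at 0 h, a difference of 0.228. Littermate lists went down to a z score of 8.64 at 3 h and 10.9 at 0 h. Wild-type lists went down to 8.88 at 3 h and 9.93 at 0 h. Median z scores of lists cut so unlike cannot be read as a change between the times, in either class. The dense share on X differed by -1.99 percentage points in littermate cells, with 2.53% at 3 h and 4.53% at 0 h, against 1.62 points in wild-type cells, where it was 1.62% at 3 h and 0% of 37 hotspots at 0 h, with an interval up to 9.49%.

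In the low-density class the wild-type library held 219 hotspots at 3 h and 10 at 0 h, so its medians at 0 h rest on very few. As deposited, the median MaxD differed by -0.667 in littermate cells, with 3.89 at 3 h and 4.56 at 0 h. In wild-type cells it differed by 1.94, with 8.44 at 3 h and 6.50 at 0 h. The littermate values stand on steps of 0.486 at 3 h and 1.14 at 0 h. Over the 617 littermate pairs low-density at both times, the median ratio was 0.809 as deposited and 1.89 in steps. The littermate direction thus depends on the unit, and steps of the wild-type libraries are not given here. The median z score differed by 1.38 in littermate cells, with 14.4 at 3 h and 13.02 at 0 h, and by -1.61 in wild-type cells, with 9.51 at 3 h and 11.1 at 0 h. The median width differed by 36 bp in littermate cells, with 293 bp at 3 h and 257 bp at 0 h, and by -4 bp in wild-type cells, with 257 bp at 3 h and 261 bp at 0 h. The share on X differed by 0.163 points in littermate cells and -14.9 points in wild-type cells, where it was 15.1% at 3 h and 30.0% at 0 h.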

How the results depend on the processing

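No paired analysis was possible because the results come from no test and each time is 1 library. No library could be left out. Of all 308 recomputed values 217 stayed within the interval of the value reported (within 1.5 times, for numbers of hotspots) and 91 moved past it, of which the 51 that bear on class numbers, shares, widths, X and grouping follow, beside values that turned. The cause was not tested. Of 94 differences between 3 h and 0 h recomputed, 88 kept their direction.

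The 6 that turned were the low-density share on X with the boundary at MaxD 15 (9.10% at 3 h, 9.32% at 0 h), the dense share on X at 20 steps (2.74% at 3 h, 1.95% at 0 h), and, with lists of equal length, the low-density number (3714 at 3 h by MaxD and 4550 by z score, against 5540 at 0 h) and the low-density share listed at the other time (by MaxD 8.94% at 3 h, against 5.74% at 0 h, and by z score 11.6% at 3 h, against 9.42% at 0 h).

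With lists of equal length by z score the 3 h dense class held 1255 hotspots, 10.9% of them listed at 0 h, and 54.3% of the 0 h dense class was listed at 3 h. From the higher lowest z score, 3 h values were 599 bp wide, 8.90% listed and 22.9% within 10 kb (dense), and 316 bp, 10.2% and 24.5% (low-density). At 20 steps the 0 h dense class held 154, with a median of 543 bp, 76.0% listed, 1.95% on X and 1.30% within 10 kb.

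With the boundary at MaxD 15, dense hotspots at 3 h had a median of 615 bp, 87.3% in the wild-type 3 h list, 9.65% listed at 0 h, 1.35% on X and 22.6% within 10 kb, and those at 0 h 481 bp and 3.41%. Low-density ones at 3 h had 301 bp and 5.83% in wild type. At MaxD 8, dense hotspots at 3 h had 539 bp, 74.8% in wild type and 3.31% on X, low-density ones 0.453% in wild type, and dense ones at 0 h 423 bp and 57.7% listed.

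With a reciprocal overlap of 50%, 5.25% of low-density hotspots at 3 h and 7.15% at 0 h were listed at the other time, 58.1% of dense ones at 0 h, and 69.3% of dense and 0.455% of low-density ones at 3 h were in wild type. With centres within 500 bp, low-density shares were 9.33% at 3 h and 12.96% at 0 h. With hotspots over input kept, dense ones at 3 h had 75.9% in wild type and 3.51% on X, and 13.7% of dense ones at 0 h lay within 10 kb. For groups within 25 kb and 5 kb, the shares were 38.8% and 19.6% of dense hotspots at 3 h, 37.1% and 24.1% of low-density ones at 3 h, and 28.4% and 19.4% at 0 h.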
